A study of Mus musculus with 9 samples.

Results

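The transcriptome described here is that of the cerebellum of mice given saline, the control condition of a study of cerebellar damage, and it is taken from 3 of the study's 9 bulk RNA-seq libraries. The study's other libraries come from mice given 3-acetylpyridine (3AP) or PLX3397 with 3-acetylpyridine (PLX3AP) and are not used. The labels give the tissue as cerebellum, the treatment as saline and the molecule as total RNA. The sources used here do not give strain, age or sex, or say whether each library is 1 animal or a pool. Every row that carries a gene name (53924 of 55808) was ranked by its mean over the 3 libraries in TPM, a level scaled to transcript length and to the library's total, and each level is given with the SD between libraries (n = 3). No group is compared with another and no test is made, so "higher" and "lower" below describe order only.

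The libraries held 20766270, 19851898 and 20908982 estimated reads. Library 3 stands apart in genes of the choroid plexus, the epithelium of the ventricles that makes cerebrospinal fluid. All 12 listed choroid plexus genes were highest there, and their summed level was 319 TPM in library 1, 729 TPM in library 2 and 6950 TPM in library 3, which is 13.3 times the mean of the other two. Over all rows at 1 TPM or more, 24.1% were highest and 52.6% lowest in library 3. Results that rest on this library are given with and without it. In bulk RNA, more cells of a type and more RNA per cell cannot be told apart.

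The cerebellar cortex is built from a few cell types in a repeated layout. Granule cells, the most numerous neurons of the brain, receive mossy fibres and send parallel fibres to the dendrites of Purkinje cells, whose axons are the only output of the cortex. Molecular layer interneurons and Golgi cells inhibit these neurons, Bergmann glia ensheathe the Purkinje cell synapses, and oligodendrocytes myelinate the white matter beneath. Markers of the labelled tissue were present. Zic1, a transcription factor of granule cells, was at 299, 321 and 279 TPM, and Pcp2, a protein of Purkinje cells, at 3043, 2621 and 2879 TPM.

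A small number of rows carried most of the signal. Of the named rows, 29002 (53.8%) were at 0 TPM in all 3 libraries and 19061 were above 0 in all of them. The mean reached 0.1 TPM in 20560 rows, 1 TPM in 14986, 10 TPM in 9274, 100 TPM in 1544 and 1000 TPM in 85. The 10 highest rows held 19.2% of the mean TPM, the 20 highest 23.2%, the 100 highest 35.05% and the 1000 highest 64.1%. To reach 50% took 364 rows, or 2.43% of the rows at 1 TPM or more. By library the number was 394 in library 1, 368 in library 2 and 329 in library 3, and the 20 highest rows held 22.0%, 23.9% and 24.0%.

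**Figure D1:**
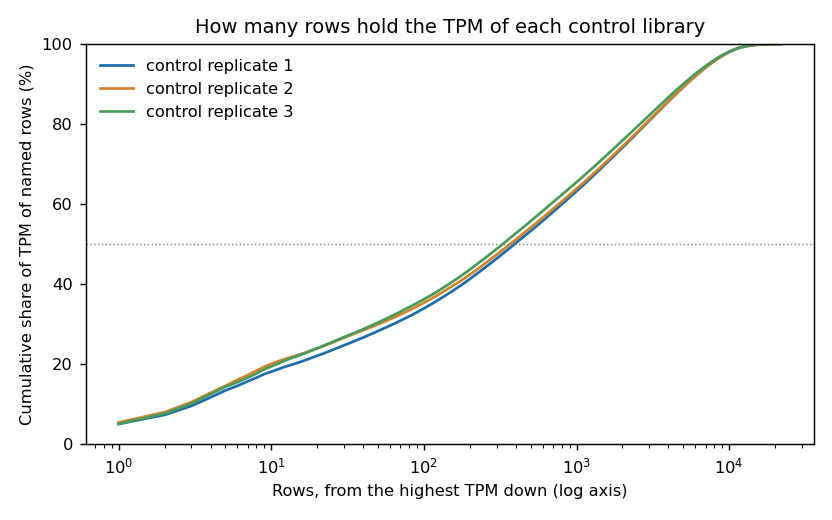
Cumulative share of the TPM of named rows (%, vertical axis) against the number of rows taken from the highest level down (log axis), with 1 line for each control library. The dotted line marks 50%, which the libraries reach at 394, 368 and 329 rows.

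By annotation class, protein-coding genes of the nuclear genome held 72.9% ± 0.966 of the TPM (SD, n = 3), and 13087 of their 21273 rows reached 1 TPM. The 13 protein-coding genes of the mitochondrial genome held 11.96% ± 0.740. Pseudogenes held 11.5% ± 0.324 although 378 of 12639 rows reached 1 TPM, and the rows behind this share are described below. Long noncoding RNAs held 0.824% ± 0.0175, with 908 of 9233 rows at 1 TPM or more. Malat1, a nuclear noncoding RNA, was at 186, 172 and 156 TPM, and Meg3, an imprinted noncoding RNA, at 101, 113 and 73.0 TPM. Both were lowest in library 3.

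Of the 85 rows at 1000 TPM or more, 13 were mitochondrially encoded, 6 were copies of mitochondrial genes in the nuclear genome, 13 were cytosolic ribosomal protein genes and 8 were nuclear genes of the respiratory chain. Another 5 were glycolytic enzymes. The remaining rows were 2 calmodulin genes, 2 metallothionein genes, 1 ferritin gene and 35 others.

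Mitochondrial DNA encodes 13 proteins of the respiratory chain, 2 ribosomal RNAs and the transfer RNAs that translate them. Its 37 rows held 11.7% of the TPM in library 1, 13.05% in library 2 and 12.9% in library 3. All 13 protein genes and both ribosomal RNAs had a mean of 100 TPM or more, whereas the 22 transfer RNA rows were at 0 TPM, with 48 reads between them over the 3 libraries. The row with the highest TPM of all was mt-Atp8, a subunit of ATP synthase, at 49855, 53779 and 50219.9 TPM. Its 204 bases make it the shortest of the 13 protein genes. Counted instead as reads per kilobase of its annotated length, scaled to library size, mt-Atp8 was at 1603, 1618 and 2086. By this measure it came 10th of the 13, with the reads of the nuclear copies described below added to their source genes. Its last 43 bases are also the first of mt-Atp6, the next subunit gene, and are shown in capitals in the sequence below, which is given because this short row heads the ranking (GRCm38).
mt-Atp8, bases 1 to 204, chrM:7766-7969, plus strand: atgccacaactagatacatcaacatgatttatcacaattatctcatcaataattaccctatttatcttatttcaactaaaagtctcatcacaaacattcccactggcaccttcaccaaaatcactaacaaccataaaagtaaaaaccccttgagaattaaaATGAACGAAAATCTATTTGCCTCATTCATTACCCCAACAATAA

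The order of the other mitochondrial genes depends on a block of the nuclear genome. Between chr1:24612407-24616197 (GRCm38), on the minus strand, lie 6 rows annotated as unprocessed pseudogenes that are near-perfect copies of mitochondrial genes. They are Gm28661, Gm28437, Gm10925, Gm10222, Gm28438 and Gm29216, copies of mt-Co2, mt-Co3, mt-Atp6, mt-Nd4l, mt-Nd3 and part of mt-Co1. In 4 of the 6 pairs every base of the copy matched: 681 in Gm28661, 783 in Gm28437, 678 in Gm10925 and 294 in Gm10222. Gm28438 matched at 344 of 345 bases, with T3C the single difference, positions being counted from the first base of the mitochondrial gene and its base written first. Gm29216 matched 486 of 492 bases of mt-Co1, and its differences (T1056A, C1057T, A1059G, A1060G, C1062A and A1066T) all lie close to its first base. The first 80 bases of this pair are shown, with the differing bases in capitals, followed by the whole of Gm10222, to let the reader see how little separates a copy from its source.
mt-Co1, bases 1054 to 1133, chrM:6381-6460, plus strand: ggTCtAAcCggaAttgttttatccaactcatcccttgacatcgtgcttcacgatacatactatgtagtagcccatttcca
Gm29216, bases 1 to 80, chr1:24616118-24616197, minus strand: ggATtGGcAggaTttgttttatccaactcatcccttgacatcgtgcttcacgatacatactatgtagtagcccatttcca
Gm10222, bases 1 to 294, chr1:24612407-24612700, minus strand: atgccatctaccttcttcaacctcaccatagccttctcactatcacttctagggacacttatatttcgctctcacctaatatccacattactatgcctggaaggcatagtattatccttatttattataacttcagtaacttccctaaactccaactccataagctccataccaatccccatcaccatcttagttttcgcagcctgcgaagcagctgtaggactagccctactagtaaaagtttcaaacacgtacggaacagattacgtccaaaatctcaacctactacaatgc

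A read that lies inside an identical stretch cannot be assigned by its sequence. In all pairs but that of mt-Co1, the deposited estimates gave most of the pair's reads to the nuclear copy. Gm28661 was at 22206, 25044 and 25578 TPM, against 696, 602 and 594 TPM for mt-Co2. In Gm28437 the levels were 22488, 23115 and 22888 TPM, against 604, 625 and 1562 TPM for mt-Co3. Gm10925 stood at 16954, 17095 and 18399 TPM, with mt-Atp6 at 854, 1088 and 1251 TPM. The copies took 97.5%, 96.0% and 94.2% of the estimated reads of these 3 pairs, 92.4% of the pair of mt-Nd4l and 84.5% of that of mt-Nd3. The division was the other way round for mt-Co1, where the shorter copy took 3.88% of the reads and 5463 ± 367 TPM, against 23806 ± 2313 TPM for the mitochondrial gene. This copy covers 492 of the gene's 1545 bases, so its 3.88% is not a share of the reads in the common stretch alone.

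Levels of these genes are therefore given for pairs. Together the 6 copies held 9.45% ± 0.340 of the TPM, and with the mitochondrial rows 20.8%, 22.8% and 22.4% in libraries 1, 2 and 3. Of estimated reads, mitochondrial rows made up 3.90%, 4.59% and 4.96%, and 5.78%, 6.57% and 7.18% with the copies. As pairs, mt-Co2 reached 24906 ± 1756 TPM, mt-Co3 23761 ± 679 and mt-Atp6 18547 ± 974. For mt-Co1 the summed TPM was 29269 ± 2052, but this sum is not the level of a single gene. The copy of mt-Co1 is 492 bases long against 1545, and TPM is scaled to length. That copy added 5463 TPM with 3.88% of the pair's reads, and mt-Co1 alone was at 23806 ± 2313 TPM. The sum of the mt-Co3 pair varied far less between libraries than mt-Co3 alone, whose SD was 547 on a mean of 930.3 TPM. Among the genes without a copy in the block, mt-Cytb was at 10507 ± 1097 TPM, mt-Nd1 at 9711 ± 760 and mt-Nd6, read from the opposite strand, at 2573 ± 189. By reads per kilobase of the pairs, the cytochrome oxidase subunits mt-Co1, mt-Co3 and mt-Co2 led in that order.

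**Figure D2:**
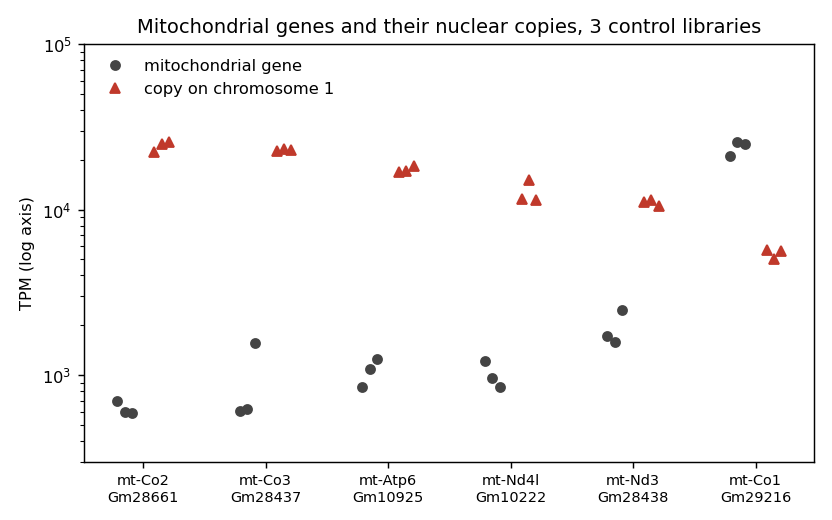
TPM (log axis) of 6 mitochondrial genes (grey circles) and their copies on chromosome 1 (red triangles), each symbol 1 control library in the order 1 to 3 from left to right. The copy lies above its source in 5 of the pairs, and mt-Co1, at 21164 to 25468 TPM, lies above its copy.

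Among nuclear genes the highest was Fth1, the heavy chain of the iron store ferritin, at 4014, 3723 and 4268 TPM. Gapdh, a glycolytic enzyme, followed at 3763, 3772 and 4070 TPM. Apoe, the lipid carrier secreted by astrocytes, was at 3656, 3560 and 3720 TPM. The ranges of Fth1 and Gapdh overlap, and those of Gapdh and Apoe do not. Among the 40 highest rows 32 of the 39 neighbouring pairs overlapped, so their order is loose. Calm2, a calmodulin gene, was at 3566 ± 223 TPM, and Ptgds, the prostaglandin D synthase of meninges, choroid plexus and oligodendrocytes, at 3040.3, 3460.0 and 3969 TPM, highest in library 3.

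Genes of defined cell types stood beside these widely expressed genes. Mbp, the myelin basic protein of oligodendrocytes, was at 3591, 2978 and 3653 TPM. Purkinje cells, which are few, supplied Pcp2 at 2848 ± 213 TPM and Pcp4, a calmodulin-binding peptide, at 2648, 2627 and 2657 TPM. Snap25, a membrane fusion protein of nerve terminals, was at 2417, 2206 and 2098 TPM, below both in every library. Aldoc, the aldolase of astrocytes and of Purkinje cell stripes, was at 2004, 2297 and 2188 TPM.

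Other members of the 40 highest rows were Ubb (ubiquitin, 3015 ± 181 TPM), Ckb (creatine kinase of brain, 2812 ± 65.1), Itm2b (a membrane protein, 1949 ± 85.8), Eef1a1 (translation elongation, 1938 ± 23.5), Hspa8 (a constitutive chaperone, 1938 ± 78.8) and Mt1 (a metal-binding metallothionein, 1897 ± 161). Rn18s, a row for 18S ribosomal RNA, was at 3174, 2571 and 3805 TPM. The sources used here do not say how ribosomal RNA was removed. Of the 40 rows, 38 were also among the 40 highest over libraries 1 and 2 alone. The exceptions were mt-Nd3 and Ttr, the thyroxine carrier of the choroid plexus, which ranked 29th over 3 libraries and 381st over 2.

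Rank by TPM and rank by reads differed for some of the highest rows. Gm37421 was at 2345, 3143 and 716 TPM with 38.7, 45.5 and 17.6 estimated reads, so its place among the 40 highest rows rests on 102 reads. Gphn, the inhibitory synapse scaffold gephyrin, was at 2237, 1170 and 1723 TPM and ranked 41st by TPM but 1300th by reads, with 3739, 2634 and 3382 estimated reads. Of the 40 highest rows by TPM, 24 were among the 40 highest by reads. Of the 9274 rows at 10 TPM or more, 85 had fewer than 100 reads over the 3 libraries and 54 fewer than 30.

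Cytosolic ribosomal protein genes, whose products with ribosomal RNA make the ribosome, held 4.93%, 4.83% and 5.32% of the TPM. Of 89 rows 84 reached 1 TPM, and the same 84 reached 10 TPM. The highest were Rpl13a at 1674 ± 120, Rps15 at 1631 ± 76.8, Rplp1 at 1580.4 ± 95.7 and Rpl26 at 1397 ± 83.5 TPM. No single gene supplied more than 3.36% of the sum. Translation elongation factors added 0.415% ± 0.00425, and Eef1a1 exceeded Eef1a2, the form of neurons and muscle, by 2.18 ± 0.0776 times.

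Nuclear genes of the respiratory chain held 4.31%, 4.08% and 4.42% of the TPM, and 88 of 94 rows reached 1 TPM. Atp5b, the catalytic beta subunit of ATP synthase, led at 2886, 2789 and 2452 TPM. Cox4i1 (1907 ± 132), Cox8a (1769 ± 72.2) and Cox6a1, all cytochrome oxidase subunits, followed. Between libraries the median CV of the family's rows at 10 TPM or more was 5.69%.

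Glycolysis was carried at 1.45% ± 0.0283 of the TPM by 18 rows, of which 17 reached 1 TPM. Behind Gapdh came Aldoc, Aldoa at 1747 ± 40.1, Pkm (pyruvate kinase) at 1229 ± 30.3 and Ldhb (lactate dehydrogenase B) at 1044 ± 53.0 TPM. Sodium pump genes, which restore ion gradients after firing, summed to 3930.04 ± 121 TPM. The highest was Atp1b1, a beta subunit, at 1224 TPM, and Atp1a4, the form of sperm, had 0 reads in each library, a count that allows up to 0.152 CPM (reads scaled to library size).

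Of the proton pump genes, which acidify vesicles, 18 of 27 rows reached 10 TPM, led by Atp6v0c at 1258 TPM. Of 39 proteasome genes 37 reached 1 TPM, the highest being Psmc5 at 304 TPM. The proteins that release synaptic vesicles were all present, 24 of 24 rows at 1 TPM or more. After Snap25 the highest were Syp, a vesicle membrane protein, at 808, 804 and 807 TPM, Rab3a at 698 ± 26.6 and Vamp2 at 552 ± 5.05 TPM.

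Calmodulin genes encode the same calcium sensor. Calm2 supplied 63.1% ± 1.24 of their TPM and Calm3 20.1% ± 1.07, an unequal division that was similar in all libraries. Among the metallothioneins Mt1 (1897 TPM) and Mt2 (1621 TPM) exceeded Mt3, the form of brain (913 TPM), and Mt4, the form of squamous epithelium, had 0 reads. Of the tubulins, 12 of 19 rows reached 1 TPM, with Tuba1a at 887 ± 23.4 and Tubb4a at 873 ± 24.1 TPM.

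Cell type lists, 20 in all with 255 genes, were then read by the median of their genes' mean TPM. The lists were compiled by known expression and are not equal in size or in how abundant their genes are within a cell, so a list's level is not a share of cells. Astrocytes and Bergmann glia had the highest median (302 TPM over 22 genes), before Purkinje cells (284 over 19), granule cells (183 over 21), mature oligodendrocytes (125 over 15) and erythroid cells (73.1 over 7). Inhibitory interneurons (44.5), cerebellar nuclei (31.7), endothelium (17.5), oligodendrocyte precursors (12.5) and choroid plexus (10.7) came next. Without library 3 the choroid plexus median was 3.72 TPM.

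**Figure D3:**
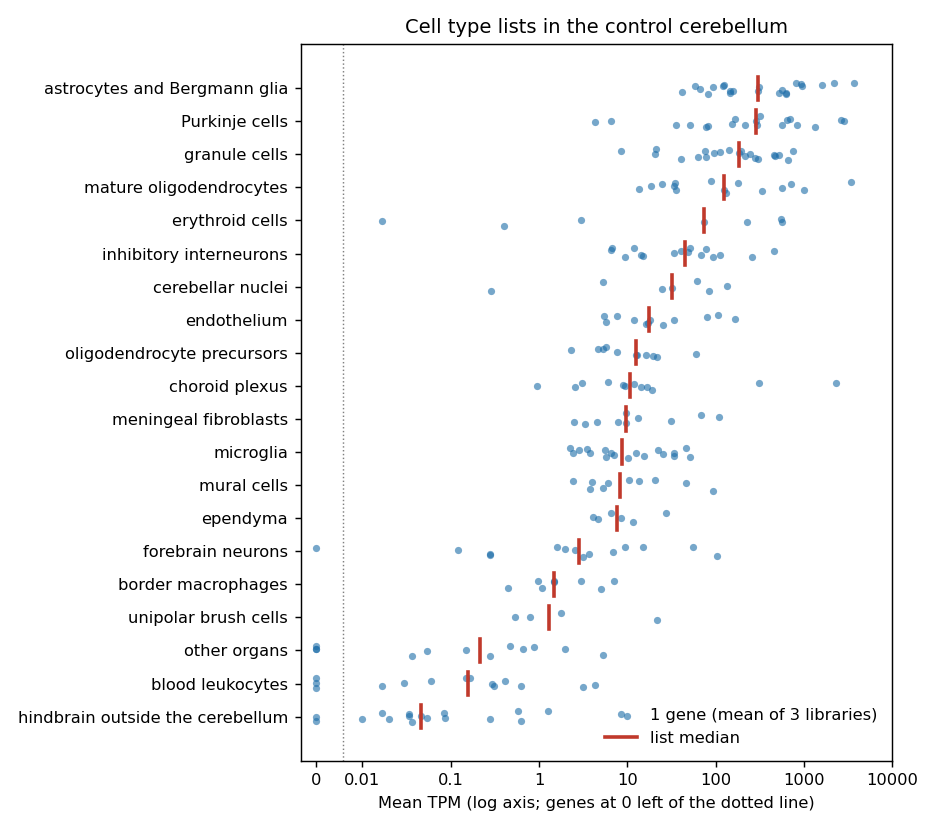
Mean TPM over the 3 control libraries (log axis) of each gene in 20 cell type lists (blue points), with the list median as a red bar. Genes at 0 lie left of the dotted line, and list medians run from 302 TPM in astrocytes and Bergmann glia down to 0.0467 TPM in hindbrain outside the cerebellum.

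Of the granule cell genes all 21 reached 1 TPM and 13 reached 100. Cbln1, which granule cells secrete to join their synapses to Purkinje cells, was at 755, 705 and 766 TPM. Calb2, the calcium buffer calretinin, was at 665, 600.1 and 722 TPM. Gabra6, a GABA-A receptor subunit of granule cells, was at 486, 461 and 442 TPM, and Cbln3, the partner of Cbln1, at 496, 458 and 429 TPM.

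Granule cell transcription factors were also high. Zic1 (299.8 ± 20.8) and Zic2 (195 ± 1.36) were the highest of the 5 Zic genes, Neurod1 was at 244 ± 23.2 and Pax6 at 74.7 ± 4.68 TPM. Barhl1, at 8.36 TPM, was the lowest gene on the list. Slc17a7, the vesicular glutamate transporter of parallel fibres, was at 282, 279 and 277 TPM and exceeded Slc17a6, the form of the cerebellar nuclei, by 8.88 ± 0.847 times.

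Purkinje cell genes ran from 4.33 to 2848 TPM. After Pcp2 and Pcp4 came Pvalb, the calcium buffer parvalbumin that interneurons share, at 1421, 1193 and 1348 TPM. Calb1, the calcium buffer calbindin, was at 948, 859 and 692 TPM, Car8, a carbonic anhydrase homologue that binds the IP3 receptor, at 802, 675 and 622 TPM, and Itpr1, the IP3 receptor itself, at 637, 646 and 385 TPM. All 3 were lowest in library 3, as were 13 of the 19 listed genes, against 52.6% of all rows at 1 TPM or more. Pcp4 and Gng13 were highest in library 3. At the other end Skor2, a nuclear regulator, was at 6.44 ± 0.286 and Foxp2, a transcription factor, at 4.33 ± 0.918 TPM.

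Inhibitory interneuron genes were led by Gad1, which makes GABA, at 498, 481 and 403 TPM. Purkinje cells also express it. Gad1 exceeded its paralog Gad2 by 8.96 ± 0.522 times. Slc32a1, the vesicular transporter of GABA and glycine, was at 112 ± 3.99, and Kit, a receptor of molecular layer interneurons, at 68.2 ± 6.02 TPM. Slc6a5, the glycine transporter of Golgi cells and nuclei, was at 9.44 ± 1.06 TPM.

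Rarer neurons left smaller signals. Eomes, the transcription factor of unipolar brush cells, was at 20.7, 27.7 and 17.3 TPM, while the other 3 genes of that list were at 1.77 TPM or less. For the cerebellar nuclei, the neurofilament genes Nefm (136 ± 8.77) and Nefh (84.6 ± 5.58) were highest but are shared with Purkinje cells and interneurons. Lhx9, a transcription factor of nuclear neurons, was at 5.28 ± 0.862 TPM, and Tbr1, of a subset of them, at 0.283 ± 0.215 TPM.

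Glia contributed the highest single cell type genes. Behind Apoe and Aldoc, the astrocyte list held Sparcl1, a secreted matrix protein, at 1583 ± 62.7, Ndrg2 at 939 ± 8.90 and Glul, which converts glutamate to glutamine, at 806, 808 and 802 TPM. Slc1a3, the glutamate transporter of Bergmann glia, was at 565, 534 and 465 TPM, and it exceeded Slc1a2, the main form of the forebrain, by 4.39 ± 0.186 times. Gfap, the filament of fibrous astrocytes, was at 135, 143 and 151 TPM. Gdf10, a growth factor of Bergmann glia, was at 65.9, 65.9 and 65.4 TPM.

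Oligodendrocyte genes moved together between libraries. Mobp was at 747, 631 and 776 TPM and Trf, the iron carrier transferrin, at 582, 494 and 614 TPM, so both, like Mbp, were lowest in library 2. The sum of the list was 7108 TPM in library 1, 5919 in library 2 and 7081 in library 3. Precursor genes were far lower, with Olig1 at 59.5 ± 4.74, Pdgfra, their growth factor receptor, at 5.80 ± 0.503 and Cspg4 at 2.30 ± 0.272 TPM.

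Microglial genes had a median of 8.61 TPM, and their sum was 294, 285 and 292 TPM, a narrow range. Ctss, a lysosomal protease, was at 48.4, 44.3 and 47.2 TPM. The C1q chains C1qa (33.5 ± 2.50), C1qb (33.5 ± 5.02) and C1qc (25.1 ± 3.87) were close to one another. The surface receptors were lower, with Csf1r at 14.4, 19.6 and 12.4, P2ry12 at 12.4 ± 1.82 and Cx3cr1 at 5.72 ± 0.860 TPM. The highest border macrophage gene was Stab1, a scavenger receptor, at 6.97 ± 3.03 TPM.

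Vascular genes were led by Ly6c1, a surface protein of endothelium, at 154, 164 and 174 TPM and Slc2a1, the glucose transporter of the barrier, at 95.8, 109 and 110.1 TPM. Cldn5, its tight junction protein, was at 33.7 ± 1.93 and Pecam1 at 11.98 ± 0.208 TPM. Among mural cell genes Vtn was at 93.0 ± 3.13, Rgs5, of pericytes, at 46.3 ± 3.16 and Acta2, the actin of smooth muscle, at 20.8 ± 5.36 TPM. Red cell genes were present in every library. Hba-a2 was at 480, 600.2 and 601 TPM and Hbb-bs at 461, 565 and 622 TPM. Blood leukocyte genes were near 0: the median was 0.157 TPM, Cd8a and Ncr1 had 0 reads, and the highest, S100a9 of neutrophils, was at 0.650, 4.69 and 7.44 TPM.

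Genes of the choroid plexus, and some of the meningeal list, differed in level between libraries. Ttr was at 164, 534 and 6102 TPM, and Enpp2, a secreted lysophospholipase of the choroid plexus that oligodendrocytes share, at 115, 143 and 660 TPM. Folr1, a folate receptor, was at 2.27, 4.73 and 29.0, Kl, the ageing-related protein klotho, at 1.03, 3.18 and 23.8, and Kcnj13, an inward rectifier channel, at 4.12, 6.64 and 32.3 TPM. Library 3 exceeded the mean of the other libraries by 17.5 times for Ttr, 15.1 times for Aqp1, a water channel, and 1.33 times for Otx2, a transcription factor that granule cell precursors share. Meningeal genes summed to 182, 204 and 391 TPM, with Igfbp2 at 29.3, 40.7 and 136 and Igf2 at 80.2, 83.0 and 163 TPM, whereas Col1a2 was at 8.77, 10.5 and 9.85 TPM. Igf2 and Igfbp2 are expressed in choroid plexus as well as in meninges. The median of the 10 meningeal genes differed less than their sum, at 8.77, 9.755 and 10.69 TPM.

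Regional markers of other brain areas were low but not all absent. Of 14 forebrain genes 10 reached 1 TPM, led by Penk, an opioid precursor that Golgi cells also make, at 103 ± 6.06 TPM, and Camk2a, a kinase that Purkinje cells also express, at 55.2 ± 6.88 TPM. Emx1, of the cortex, was near 0 at 0.120 TPM. Outside the cerebellum the hindbrain list had a median of 0.0467 TPM. Its highest gene was Th, which makes catecholamine precursors and is known in some Purkinje cells, at 10.1, 10.9 and 8.55 TPM. None of 39 Hox genes, which pattern the hindbrain and spinal cord behind the cerebellum, reached 1 TPM, and 27 were at 0.

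Each receptor family was led by a few subunits. Of 19 GABA-A receptor rows 14 reached 1 TPM. Gabra6 led. Gabrd, the extrasynaptic delta subunit, was at 181, 186 and 183 TPM, and Gabrb2, a beta subunit, at 107 ± 21.3 TPM. Gabra5, known from the hippocampus, was at 3.66, 3.74 and 3.34 TPM.

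For fast glutamate transmission the AMPA subunits ranked Gria1 (179, 178 and 149 TPM), Gria4 (167, 160 and 128 TPM), Gria2 (76.9, 72.6 and 46.9 TPM) and Gria3 (46.4, 45.1 and 32.1 TPM). The ranges of Gria1 and Gria4 overlap, and those of Gria4 and Gria2 do not. Gria1 and Gria4 are known from Bergmann glia. NMDA receptors were carried by the obligatory subunit Grin1 (127 ± 9.38 TPM) and by Grin2c (78.3 ± 4.68 TPM), the form of mature granule cells, which exceeded Grin2a by 16.1 ± 2.38 times. Grin2b, the form of immature neurons and forebrain, was at 1.84, 2.49 and 1.35 TPM.

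Among metabotropic receptors Grm4, of parallel fibre terminals, was at 177, 169 and 156 TPM, whereas Grm6, known from the retina, had 0 reads. Among receptors for other transmitters Chrnb2, a nicotinic subunit, was at 33.4 ± 3.45, Htr1b, a serotonin receptor, at 8.80 ± 1.85 and Drd2, a dopamine receptor, at 3.69 ± 0.595 TPM. Glrb, the beta subunit of the glycine receptor, was at 139 ± 10.2 TPM and the highest alpha subunit, Glra2, at 4.31 TPM.

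**Figure D4:**
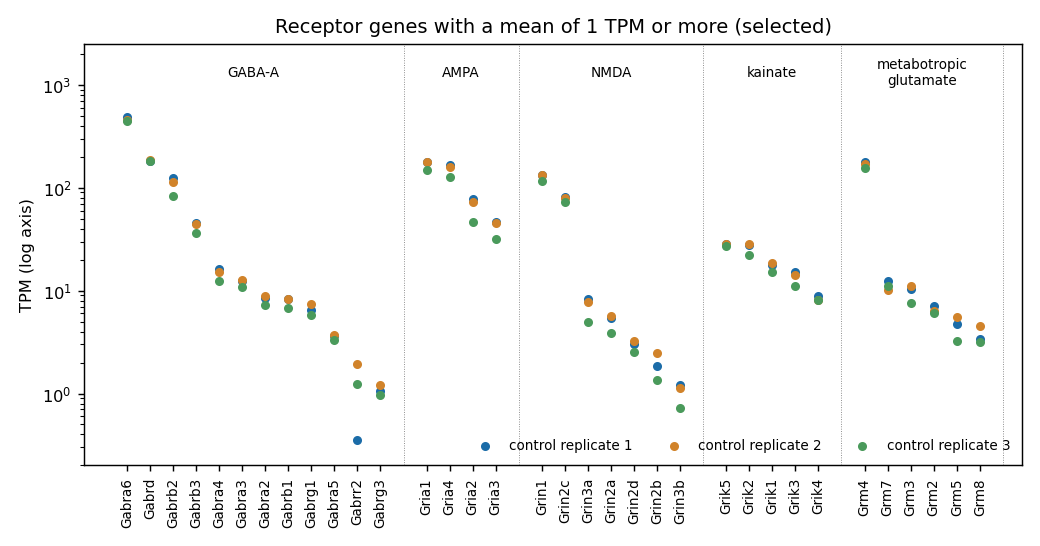
TPM (log axis) of selected GABA-A and glutamate receptor genes with a mean of 1 TPM or more, in 3 colours for control replicates 1 to 3. Within each family a few subunits stand above the rest, from Gabra6 at 463 TPM on average down to Grin3b at 1.02 TPM.

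Ion channel genes ranged widely in level. Kcnc1, a potassium channel subunit that repolarises fast spikes, was at 213, 205 and 193 TPM. Of 99 potassium channel rows 68 reached 1 TPM, and their median was 2.85 TPM, against 4.83 TPM over all protein-coding rows. Kcnk1, a leak channel, was at 199, 199 and 198 TPM. The sodium channel pore genes Scn2a, Scn1a and Scn8a were at 53.5 ± 11.6, 45.6 ± 6.94 and 39.1 ± 6.22 TPM. Among calcium channel genes Cacng7, an AMPA receptor regulator by function, was highest at 234 ± 9.99, and the pores Cacna1a, the P/Q type of Purkinje cells, and Cacna1g, the T type, were at 99.5 ± 12.4 and 88.6 ± 3.08 TPM. Hcn2 made up 81.7% of the summed TPM of the 4 HCN pacemaker channel genes.

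Few rows of sensory receptor and skin families reached 1 TPM. Of 1412 olfactory receptor rows 6 reached 1 TPM, and Olfr287 stood alone at 9.88, 8.95 and 8.37 TPM. None of 43 taste receptor rows and none of 58 keratin-associated protein rows did. One of 356 vomeronasal receptor rows, Vmn2r59, had a mean above 1 TPM, from 0.150, 0.160 and 25.3 TPM, although its estimated reads were 16.4, 15.96 and 16.8. Of 380 immunoglobulin segments 1 reached 1 TPM, and of 262 T cell receptor segments none. Of 54 keratin rows 7 reached 1 TPM, led by Krt222 at 39.7, 37.4 and 34.1 TPM and Krt25 at 12.4 ± 2.57 TPM. Of 43 beta-defensin rows 3 did, led by Defb42 at 7.45, 8.07 and 8.10 TPM.

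The libraries were close to one another for most rows. Over the 14986 rows at 1 TPM or more the median SD of log2(TPM + 1) was 0.14 and the median CV was 10.7%. Without library 3 that SD was 0.0821. The median CV was 18.3% for rows from 1 to under 10 TPM, 8.90% from 10 to under 100, 5.34% from 100 to under 1000 and 6.02% at 1000 or more. Of 1544 rows at 100 TPM or more, 711 had a CV under 5%. The steadiest was Dnajc8, a splicing-associated chaperone, at 124.8, 124.7 and 124.5 TPM. Slc25a11, a mitochondrial carrier, was at 122.5, 122.6 and 122.98 TPM, and Ckmt1, the mitochondrial creatine kinase, at 195.8, 195.8 and 196.7 TPM. Next came Syp and Kcnk1, given above.

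Of the 9274 rows at 10 TPM or more, 170 (1.83%) differed at least 2-fold between the highest and the lowest library, and 65 of these had fewer than 100 reads. The count was 91 without library 3 and 111 without library 2. Of the 105 rows with 100 reads or more, 49 also differed 2-fold in CPM, and 28 of the 49 were highest in library 3. Beside the choroid plexus genes these include Ecrg4, a secreted peptide precursor of choroid plexus, at 11.9, 22.2 and 118 TPM. Fam220a was at 19.1, 22.4 and 0.250 TPM, with 472, 533 and 6.51 reads, and was low in library 3. Of the 49 rows, 17 carried names of predicted genes (Gm) or pseudogenes. Among them Gm11518 was at 167, 6.62 and 146 TPM. Rpl27-ps3, not 2-fold apart in CPM, was at 167, 296 and 146 TPM, the same as Gm11518 in libraries 1 and 3. The 49 also hold mt-Co3, described above with its copy. Whether the assignment of reads between similar rows made such differences was not tested.

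In the remaining 56 rows CPM differed by less than 2-fold. Some of these only just missed that bound, such as Igf2, at 2.03-fold in TPM and 1.98-fold in CPM, while in 29 of them CPM differed by less than 1.25-fold. Ubap2, a ubiquitin-binding protein, was at 18.3, 17.9 and 97.6 TPM, yet had 924, 878 and 928 reads. Slc15a4, a lysosomal transporter, was at 13.2, 67.1 and 12.8 TPM with 599, 583 and 604 reads, and Wdpcp, a cilium protein, at 2.97, 70.5 and 2.64 TPM with 80, 94.4 and 93 reads. Which library was high differed from gene to gene: library 3 for Ubap2 and library 2 for Slc15a4 and Wdpcp. TPM depends on which transcript lengths the reads are assigned to, and the assignment per transcript was not analysed here. For these 3 genes the difference in TPM had no difference of like size in reads beside it.

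**Figure D5:**
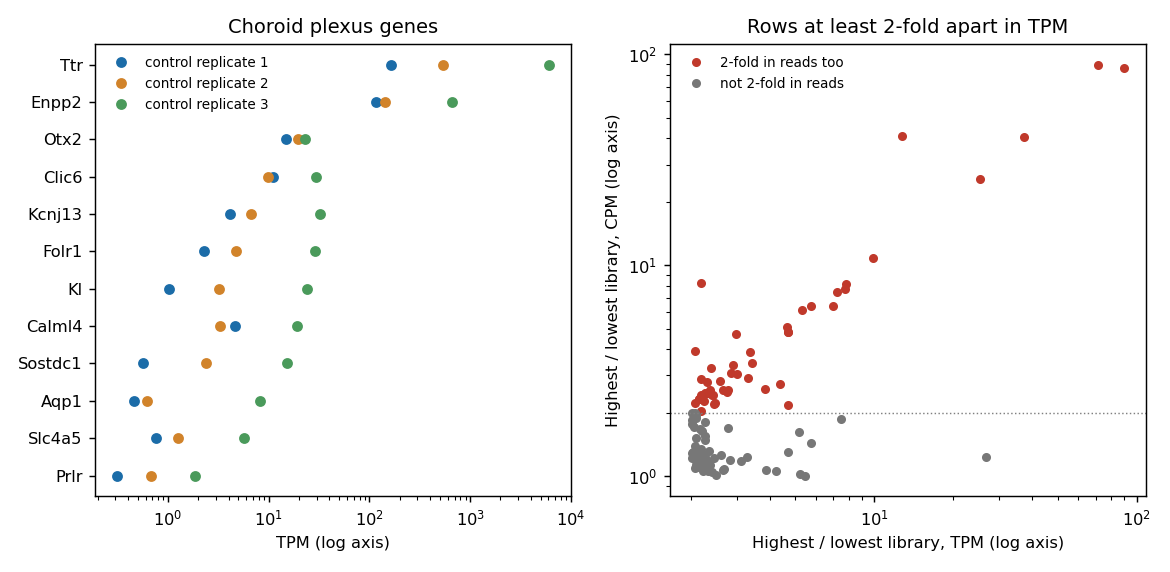
Left, TPM (log axis) of 12 choroid plexus genes in control replicates 1 to 3, where replicate 3 is the highest for each gene. Right, ratio of the highest to the lowest library in TPM (horizontal, log axis) and in CPM (vertical, log axis) for 104 of 105 rows 2-fold apart in TPM with 100 reads or more (1 row with a library at 0 is not drawn), with grey points for the 56 rows that are not 2-fold apart in reads.

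Promoter sequence differed between levels of expression. For 20958 named rows with a RefSeq promoter (GRCm38.p6), the 250 bases before the start were scored for CpG ratio, the observed over the expected number of CG pairs. The median ratio was 0.163 in 5753 rows at 0 TPM, 0.294 in 4150 rows above 0 but under 1 TPM, 0.627 in 3752 rows from 1 to under 10, 0.761 in 6125 rows from 10 to under 100, 0.763 in 1134 rows from 100 to under 1000 and 0.727 in 44 rows at 1000 TPM or more. The step lay between silent and expressed rows, with little difference above 10 TPM. The motif TATAAA, searched on the gene's strand from 40 to 16 bases before the start, was found in 4.99% of rows at 0 TPM, 0.702% of rows from 10 to under 100 TPM and 2 of the 44 rows (4.55%) at 1000 TPM or more, against 2.60% of all promoters.

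Lists differed in the same feature. The median CpG ratio was 0.815 in 65 cytosolic ribosomal protein promoters, 0.759 in 70 of nuclear respiratory genes, 0.536 in 17 of granule cell genes, 0.394 in 19 of astrocyte genes, 0.285 in 12 of microglial genes and 0.1004 in 943 of olfactory receptors. The order of the ratios did not follow that of the lists' levels. The ratio was 0.687 in 12 promoters of the hindbrain list (median 0.0467 TPM) and 0.673 in 9 of forebrain neurons (2.83 TPM). Both exceeded that of granule cell genes. It was 0.309 in 10 of mature oligodendrocytes (125 TPM) and 0.216 in 5 of erythroid cells (73.1 TPM). Rows at 1000 TPM or more also had short coding sequences, with a median of 474 bases over 61 genes, against 888 from 100 to under 1000 TPM, 1428 from 10 to under 100 and 927 at 0 TPM. TPM is itself scaled to transcript length, so these tiers are not independent of length. Coding length was not compared in tiers set by reads.

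To show these features, the 250 bases before the start of 3 genes are printed 5′ to 3′ from RefSeq (GRCm38.p6), chosen after their levels were known. Rpl13a, the highest ribosomal protein gene, holds 24 CG pairs and has a CpG ratio of 1.13. Gabra6, the highest GABA-A subunit, holds 2 and has a ratio of 0.198. In these 2 the capitals mark CG. Ckb has TATAAA starting 28 bases before the start, marked in capitals. A match describes these letters only.
Rpl13a promoter, chr7:45128746-45128995, minus strand: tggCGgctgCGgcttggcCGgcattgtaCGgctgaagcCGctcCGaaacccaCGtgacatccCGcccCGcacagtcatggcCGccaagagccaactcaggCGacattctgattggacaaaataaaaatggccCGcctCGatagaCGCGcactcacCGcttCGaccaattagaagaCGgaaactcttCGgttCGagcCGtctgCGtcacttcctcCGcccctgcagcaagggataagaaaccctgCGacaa
Gabra6 promoter, chr11:42321073-42321322, minus strand: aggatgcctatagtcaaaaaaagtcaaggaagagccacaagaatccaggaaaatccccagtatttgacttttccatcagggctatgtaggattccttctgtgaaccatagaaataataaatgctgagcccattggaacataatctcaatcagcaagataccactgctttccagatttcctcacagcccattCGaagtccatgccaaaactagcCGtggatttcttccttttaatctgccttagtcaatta
Ckb promoter, chr12:111672339-111672588, minus strand: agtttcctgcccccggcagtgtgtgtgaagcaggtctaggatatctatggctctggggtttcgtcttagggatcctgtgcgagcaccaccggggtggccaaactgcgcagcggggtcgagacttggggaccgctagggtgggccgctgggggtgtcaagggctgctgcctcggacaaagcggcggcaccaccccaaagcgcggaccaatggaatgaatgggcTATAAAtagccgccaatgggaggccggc

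Rows of microRNA genes were nearly all at 0 TPM. The 1 row of 1093 above 0 was Mir219a-2 at 8.02 ± 0.275 TPM. Long transcripts that host them were measured. Mir124a-1hg, host of a neuronal microRNA, was at 76.1, 87.7 and 76.0 TPM. Mir670hg was at 34.7, 36.9 and 40.7, Mir9-3hg at 38.2, 38.0 and 30.3, and Mir22hg at 10.5, 13.8 and 12.04 TPM. These levels are of the host transcripts and say nothing of the mature forms. The mature sequences that RefSeq places inside the last 3 hosts are given, 1 or 2 per host, with the seed (bases 2 to 8), which pairs with targets, in capitals (GRCm38.p6). None of the seeds shown is shared.
miR-129-5p, chr2:94241419-94241439, minus strand: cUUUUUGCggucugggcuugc
miR-670-5p, chr2:94261358-94261379, minus strand: aUCCCUGAguguauguggugaa
miR-9-5p, chr7:79505279-79505301, plus strand: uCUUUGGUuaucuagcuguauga
miR-22-3p, chr11:75463772-75463793, plus strand: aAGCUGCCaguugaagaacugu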

How the data were processed

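Only the control libraries were analysed. The submitters' processing notes name RSEM, StringTie, HISAT2 and fastp, with mm10 as the build. The sources used here give no versions, annotation release or strandedness. Values in the deposited count tables are expected counts without normalisation (28.7 to 30.2% of those above 0 are not whole). Values in the deposited TPM tables were scaled by the authors for length and library total. Rows without a name (1884, with 0.531 to 0.603% of reads) were left out of rankings, and 1705 rows sharing 108 symbols were kept apart.

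Ranks, shares, SDs and CVs were computed from TPM, and CPM from expected counts, in Python 3.11.15 with pandas 2.3.3 and numpy 2.4.6, checked on simulated data. TPM gives gene levels per length. The SD of log2(TPM + 1) used a pseudocount of 1. A count of 0 allows 3 reads, and limits cover counting error only. Of 52219 symbols on 1 row 49835 matched GENCODE M21 (GRCm38), which gave classes and positions. Copies and mitochondrial genes were compared base by base without gaps. Promoters and microRNAs are RefSeq's (GRCm38.p6).

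Named genes were drawn from the 40 highest rows, the 4 highest members of each list or family with defining markers at 0, and paralogs that encode the same protein. Further genes came from the steadiest rows at 100 TPM or more and the most variable at 10 TPM or more, not all of which are named. A few others were chosen after their values were seen. The control libraries, the lists and the families were chosen with earlier results of these data known. The libraries are not stated to be separate animals, so the spread may be technical. Some genes are not reported here.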

Additional observations from a re-analysis of the deposited data

How the results depend on the processing

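No paired analysis was possible because the values come from no test and from a single group. CPM in place of TPM, which counts reads without regard to length, moved the 50% mark from 364 to 1115 rows, the share of the 20 highest rows from 23.2% to 8.68%, the mitochondrial share from 12.5% to 4.49%, ribosomal proteins from 5.03% to 1.30%, nuclear respiratory genes from 4.27% to 1.42% and rows 2-fold apart from 170 to 38. Without mitochondrially encoded genes these became 562 rows, 15.9%, 5.75% (ribosomal) and 4.88% (respiratory). Counting any value above 0 gave 24922 expressed rows in place of 14986, and rows 2-fold apart were 1358 when those of 1 TPM or more were counted. The median SD of log2 values ran from 0.0821 to 0.130 with each library left out, the lowest being without library 3, and rows 2-fold apart from 91 to 123, with 91 without library 3 and 111 without library 2. Added after seeing the data, counting the 6 nuclear copies gave a mitochondrial share of 22.0%, and requiring 100 reads left 105 rows 2-fold apart. Of the other values 45 stayed within a set bound, which for shares was the SD between libraries. The bound for counts was wide: 123 rows 2-fold apart, without library 1, were still held close to 170. Of 100 recomputed medians of cell type lists 15 moved by more than the SD between libraries, 13 of them with CPM, such as red cell genes from 73.1 TPM to 20.2 CPM, endothelium from 17.5 to 36.2 and granule cells from 183 to 319. By their medians 8, 7, 8, 8 and 8 of the 8 highest cell type lists were the same with the median library, CPM and without library 1, 2 or 3. With 3 libraries an SD is loosely known, and a single library can set it.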

Other observations

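Immediate early genes, many of which neurons switch on after activity or handling, were measurable in saline cerebellum, with 18 of 20 rows at 1 TPM or more. Whether any of them was induced here was not tested. Jund, an AP-1 subunit, was at 142, 137 and 152 TPM, Fos at 21.8, 37.5 and 22.6 TPM and Egr1 at 21.2, 21.7 and 21.7 TPM. Fos was highest in library 2 and Egr1 was alike in all 3. Secretory proteins of dense-core vesicles were led by Chgb at 519 ± 43.6 TPM, Scg3 at 324 ± 15.99 and Scg5 at 303 ± 5.74 TPM. Cck, the peptide cholecystokinin, was at 232, 227 and 199 TPM, and Sst, somatostatin, at 90.9, 92.2 and 97.4 TPM.

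Scn9a, a sodium channel of sensory neurons, had 0.170, 0.430 and 28.3 TPM from 6, 13 and 13.1 reads, so libraries 2 and 3 differ widely in TPM at nearly equal reads. The same holds for Vmn2r59, described above. Snora28, a small nucleolar RNA, was at 0, 0 and 92.8 TPM, and the level in library 3 comes from 1.91 estimated reads.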
